A study of Homo sapiens with 24 samples.

Results

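Deletion of HAR123 was examined in undifferentiated human embryonic stem cells (hESCs) by comparing, across all genes, the 3 RNA-seq libraries of HAR123-KO hESCs with the 3 libraries of unedited hHAR123 hESCs, 6 of the 24 libraries of the series. HAR123 is a human accelerated region, a stretch of DNA that is conserved among mammals but changed quickly on the human lineage, and it lies in an intron of SMG6 on the short arm of chromosome 17. The cells were H9 (WA09), an established hESC line, grown in StemFlex medium on Matrigel with no other treatment (day 0 of differentiation). In HAR123-KO hESCs, CRISPR-Cas9 removed HAR123 from both alleles. In 2 further genotypes used here for reference, the human element was replaced by its chimpanzee (cHAR123) or mouse (mHAR123) ortholog. Each of these groups had 3 hESC libraries, and the 6 libraries of hHAR123 and HAR123-KO neuroectoderm after 5 days of differentiation were used only for a test of the stage. The study describes 2 independent clones per genotype for RNA-seq, and the clone behind each library is not given in the sources used here. The spread between libraries may therefore be technical or clonal, and the effect of the deletion and of clonal growth after editing cannot be told apart in this comparison.

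Enhancers raise transcription of genes in the same stretch of chromatin, and many are active only in certain cell types. hESCs in the primed state depend on POU5F1, NANOG and SOX2 together with FGF2 and NODAL/activin signals, and hold the genes of later lineages at low levels. The comparison asked which genes change when the enhancer is lost before any neural differentiation has begun.

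Total counts per library ranged from 23334732 to 35198684. Libraries of the same genotype were 42.5 to 46.6 apart (Euclidean distance on log2 CPM, the counts of a gene divided by the library total and scaled to 1e6), and libraries of the 2 genotypes were 55.4 to 59.7 apart. The chi-square per degree of freedom between replicates was 1.72 to 5.53, so that every pair of replicates differed by more than sampling noise. In a library, 38 to 59 genes lay over 2-fold above both other libraries of its group and 104 to 161 lay over 2-fold below them, of which at most 13 had a mean of at least 1 CPM. Mitochondrial genes took 4.02% to 4.10% of counts in hHAR123 and 4.40% to 4.48% in HAR123-KO libraries. Both genotypes carried the transcripts that define hESCs. POU5F1, the central pluripotency factor, had a mean of 1139 CPM ± 13.4 (SD, n = 3) in hHAR123 and 1058 CPM ± 6.05 in HAR123-KO. SOX2 had means of 206 and 204 CPM, and NANOG had 157 and 151 CPM.

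Genes were called at an adjusted p under 0.01 (edgeR quasi-likelihood test, Benjamini-Hochberg adjustment) together with a change of over 2-fold. Of 20832 genes tested, 200 were higher in HAR123-KO hESCs (0.96%) and 46 were lower (0.221%). The increases were moderate, with a median log2 fold change of 1.32, whereas the decreases had a median size of 1.99 on the log2 scale, and 24 of the 46 genes lower in HAR123-KO had a mean under 25% of that in hHAR123. Changes of any size were far more common, since 7.06% of tested genes were higher and 5.29% lower at an adjusted p under 0.01 alone. The median log2 fold change over all tested genes was 0.000329. Of the 246 called genes, 102 had a mean under 1 CPM over the 6 libraries. In bulk RNA, fewer cells of a type and less RNA per cell cannot be told apart. Long noncoding RNAs made up 87 called genes and protein-coding genes 140. Of the lncRNAs tested, 2.03% were called higher and 0.494% lower, against 0.774% and 0.176% of protein-coding genes. At the p threshold alone the order was reversed, with 4.85% of lncRNAs higher and 1.1% lower, against 8.37% and 6.74% of protein-coding genes.

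**Figure D1:**
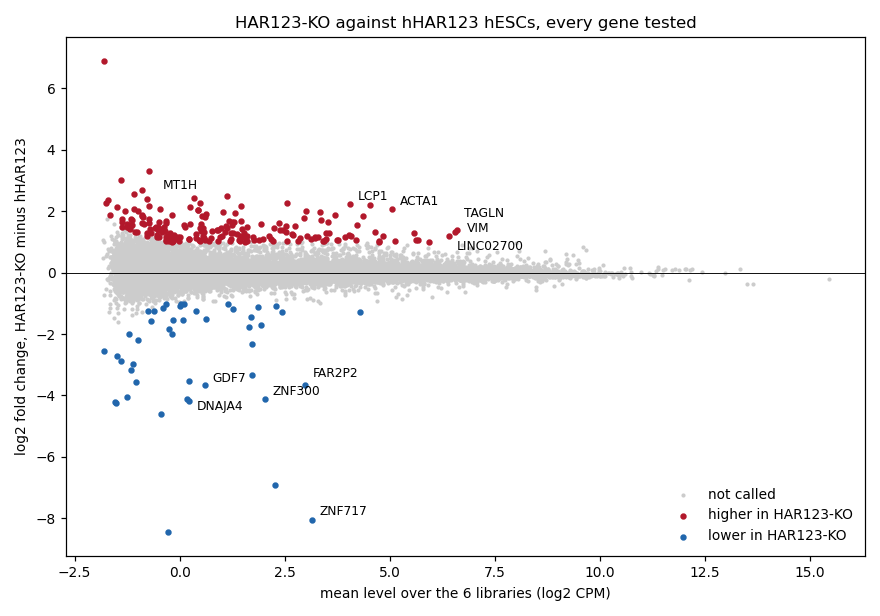
Each point is 1 of the 20832 genes tested, with the mean level over the 6 libraries (log2 CPM) on the x axis and the log2 fold change of HAR123-KO minus hHAR123 hESCs on the y axis. Red points are the 200 genes called higher and blue points the 46 called lower, and the largest decreases, such as ZNF717 at -8.05, exceed the size of the labelled increases.

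The genes with a symbol, a mean of at least 1 CPM and the largest increases included MT1H, TRPM2, LCP1, CLC, RTP1, ACTA1 and ANXA1, with log2 fold changes from 2.05 to 2.41. LCP1, which encodes the actin-bundling protein L-plastin, had 6.50, 5.81 and 5.85 CPM in hHAR123 and 28.5, 28.8 and 28.3 CPM in HAR123-KO (log2 fold change 2.22 ± 0.07, SE, adjusted p = 8.99e-27). The groups did not overlap, and the SD within HAR123-KO was 0.26 CPM for this gene. TRPM2, a calcium-permeable cation channel, rose from 0.481 CPM ± 0.19 to 2.34 CPM ± 0.17 (SD, n = 3 each). CLC, which encodes the Charcot-Leyden crystal protein galectin-10, rose from 1.02 to 4.61 CPM, and RTP1, a chaperone of odorant receptors, rose from 0.427 to 1.90 CPM. ANXA1, a calcium-dependent phospholipid-binding protein, had 0.631, 0.271 and 0.653 CPM in hHAR123 and 2.31, 2.28 and 2.0 CPM in HAR123-KO (log2 fold change 2.05 ± 0.24, adjusted p = 1.02e-08).

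Among called genes of any size of change, the 3 with the highest mean level were TAGLN, VIM and LINC02700. VIM, the intermediate filament protein vimentin, had 53.2, 53.7 and 53.8 CPM in hHAR123 and 136, 134 and 134 CPM in HAR123-KO. Its log2 fold change was 1.31 ± 0.03 (adjusted p = 1.12e-29), with an SD within each genotype of at most 1.0 CPM. LINC02700, a long noncoding RNA, rose from 51.7 CPM ± 0.69 to 120 CPM ± 1.8 (log2 fold change 1.19 ± 0.03).

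The largest decreases left several genes close to silence. ZNF717, a KRAB zinc finger gene, had 14.7, 16.2 and 17.9 CPM in hHAR123 and 0.0428, 0.0340 and 0.0909 CPM in HAR123-KO, which are 5 reads in 3 libraries against 1633. The ratio of hHAR123 to HAR123-KO was 280 (95% exact interval 120 to 863, for counting error only). ZNF300, another KRAB zinc finger gene, fell from 7.20, 6.59 and 7.53 CPM to 0.428, 0.306 and 0.485 CPM (log2 fold change -4.13 ± 0.18, adjusted p = 4.96e-22). DNAJA4, a co-chaperone of HSP70, had 195 reads in hHAR123 and 9 in HAR123-KO, a ratio of 18.6 (95% exact interval 9.58 to 41.2). GDF7, a BMP family ligand, had 3.06, 2.44 and 2.10 CPM in hHAR123 and 0.257, 0.0680 and 0.273 CPM in HAR123-KO (log2 fold change -3.66 ± 0.30). FAR2P2 and FAR2P3, neighbouring pseudogene transcripts on chromosome 2, fell from 13.8 to 1.07 CPM and from 5.50 to 0.533 CPM. These copies resemble one another, so that reads may have been divided between them. The lncRNA YPEL3-DT fell from 5.13 to 1.06 CPM and NECTIN3-AS1 from 4.51 to 1.33 CPM. Below the level limit of 1 CPM and chosen after its values were seen, CGAS, the sensor of cytosolic DNA, had 187 reads in hHAR123 and 9 in HAR123-KO, a ratio of 17.8 (95% exact interval 9.18 to 39.5). Likewise chosen after its values were seen, ENSG00000286449 had 140 reads in hHAR123 and 0 in HAR123-KO, and the reverse held for ENSG00000230192, with 0 and 41 reads. ENSG00000288595, an X-linked lncRNA without a symbol, was the most abundant gene called lower, from 27.1 CPM ± 1.2 to 11.19 CPM ± 0.45, with 6.01 CPM in cHAR123 and 24.3 CPM in mHAR123.

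The levels of these genes in the other edited hESCs separated them into kinds. ZNF717 was near 0 in HAR123-KO only among the 4 genotypes, with 19.7 CPM ± 1.6 in cHAR123 and 18.8 CPM ± 1.2 in mHAR123, and its direct comparisons gave log2 fold changes of -8.29 and -8.22. DNAJA4, ZNF300, GDF7, FAR2P2, FAR2P3, YPEL3-DT and NECTIN3-AS1 were low in all 3 edited genotypes. GDF7, for example, had means of 0.199, 0.182 and 0.137 CPM in HAR123-KO, cHAR123 and mHAR123. For FAR2P2, FAR2P3, YPEL3-DT and NECTIN3-AS1, neither direct comparison of HAR123-KO with a replacement passed (adjusted p from 0.0714 to 1). Several of the leading increases took an intermediate level in the replacement lines. LCP1 had 13.4 CPM ± 1.2 in cHAR123 and 14.2 CPM ± 0.77 in mHAR123 and was lower there than in HAR123-KO by direct tests (log2 fold change of HAR123-KO against each 1.10 and 1.02, adjusted p = 1.45e-18 and 5.05e-15). RTP1 at 0.519 and 0.700 CPM and ANXA1 at 0.772 and 0.973 CPM lay nearer to hHAR123 than to HAR123-KO. TRPM2 was nearer to HAR123-KO, at 2.0 CPM in cHAR123 and 1.5 CPM in mHAR123, and neither direct test passed (adjusted p = 0.509 and 0.0117). SLC35A2, which encodes the Golgi UDP-galactose transporter, had 17.9 CPM in hHAR123, 36.4 CPM in HAR123-KO, 17.5 CPM in cHAR123 and 16.1 CPM in mHAR123, and its fold change over hHAR123 was close to the 2-fold limit (log2 1.01 ± 0.05). It was just under 2-fold and not called without hHAR123 replicate 2 (0.98), without HAR123-KO replicate 3 (0.97), with DESeq2 (0.9987) or without the filter on low counts (0.9967). Counted over all genes, 0.189% of 20659 genes were higher and 0.0823% lower in HAR123-KO than in cHAR123, and 0.143% of 20926 were higher and 0.1% lower than in mHAR123. These comparisons share the HAR123-KO libraries.

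**Figure D2:**
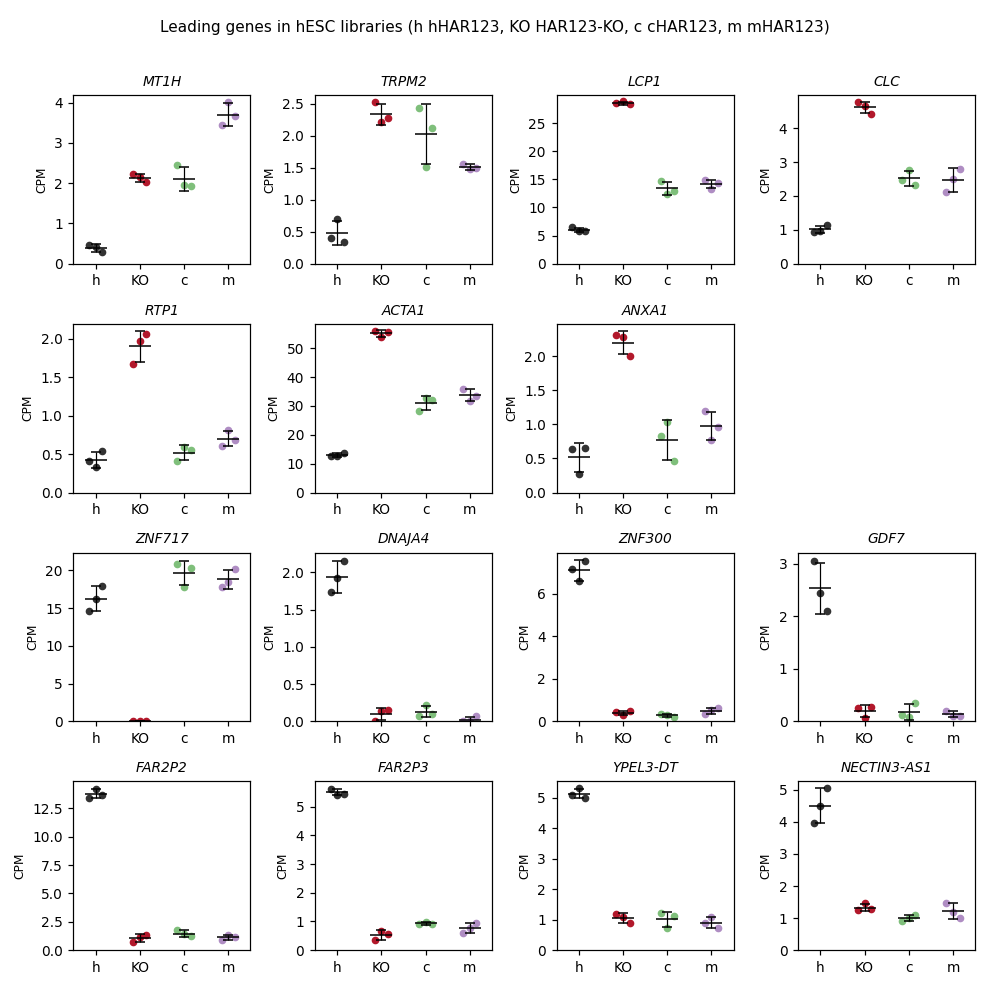
Each panel shows 1 of 7 leading increases (top 2 rows) or 8 leading decreases (bottom 2 rows), with the level in CPM on a linear y axis from 0 and the 4 hESC genotypes on the x axis (h, hHAR123; KO, HAR123-KO; c, cHAR123; m, mHAR123). Points are the 3 libraries and bars the mean ± SD, and ZNF717 is near 0 in KO only, at 0.0559 CPM.

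Metallothioneins, small cysteine-rich proteins that bind zinc and copper, rose as a family. Of 11 genes listed, 6 were expressed enough to be tested and 4 of the 6 were called higher, against 0.96% of all tested genes. All 6 passed the p threshold, with a median log2 fold change of 1.39. MT1G had 2.59, 2.59 and 2.42 CPM in hHAR123 and 8.36, 6.97 and 8.45 CPM in HAR123-KO (log2 fold change 1.63 ± 0.12, adjusted p = 1.15e-14). MT1H had 0.473, 0.422 and 0.284 CPM and 2.23, 2.14 and 2.03 CPM (2.41 ± 0.25, adjusted p = 2.59e-10). MT1E and MT1F were also called, at 1.63 and 1.15, while MT1X at 0.97 and MT2A at 0.73 passed the p threshold without reaching 2-fold. The 4 called genes belong to the metallothionein cluster on chromosome 16 (56625475 to 56671129, GRCh38). They resemble one another in sequence, so the division of reads among them is uncertain. Levels in cHAR123 hESCs were close to those in HAR123-KO (MT1G 8.10 CPM, adjusted p = 0.865), and mHAR123 hESCs had higher levels than HAR123-KO (MT1G 15.9 CPM, log2 fold change of HAR123-KO against mHAR123 -1.001, adjusted p = 1.49e-10).

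Metallothionein genes are induced through metal response elements, short promoter motifs bound by the zinc-sensing factor MTF1. The sequence before the start site is shown for a strongly and a weakly changed member, taken from RefSeq promoters (GRCh38.p14, plus strand, chr16:56669564-56669813 for MT1H and chr16:56608334-56608583 for MT2A), with matches to the core TGCACNC or TGCGCNC on either strand in capitals.
MT1H: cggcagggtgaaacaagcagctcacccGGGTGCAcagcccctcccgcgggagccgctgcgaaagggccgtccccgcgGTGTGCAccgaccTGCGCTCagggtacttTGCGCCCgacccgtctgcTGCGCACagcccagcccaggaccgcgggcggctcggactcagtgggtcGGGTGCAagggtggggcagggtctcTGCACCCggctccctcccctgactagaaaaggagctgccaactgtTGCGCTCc
MT2A: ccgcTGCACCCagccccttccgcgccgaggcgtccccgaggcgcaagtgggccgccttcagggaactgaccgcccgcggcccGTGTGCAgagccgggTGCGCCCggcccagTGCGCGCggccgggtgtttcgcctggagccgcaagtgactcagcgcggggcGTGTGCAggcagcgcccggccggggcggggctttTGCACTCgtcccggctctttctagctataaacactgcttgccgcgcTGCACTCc
MT1H held 8 matches and MT2A 7, overlaps counted separately. In the same 250 bases before the start, 24.8% of 35116 RefSeq promoters held at least 1 match and 0.0313% held 7 or more. Of the 11 listed metallothioneins, 5 had a RefSeq promoter entry and all 5 of those held a match. Only 3 of the 5 were tested, and MT1H was the only called member with an entry. A match describes the sequence and not a bound site.

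Actins and contractile genes, the structural parts of muscle fibres and stress fibres, rose in part. Of 31 listed, 30 were tested, 5 were called higher and none lower, and 17 passed the p threshold upward and none downward, against 7.06% and 5.29% of all tested genes. ACTA1, skeletal muscle actin, had 12.7, 12.6 and 13.8 CPM in hHAR123 and 56.0, 53.8 and 55.5 CPM in HAR123-KO (log2 fold change 2.06 ± 0.05, adjusted p = 1.12e-29). ACTG2, smooth muscle gamma-actin, rose from 3.58 CPM ± 0.24 to 12.4 CPM ± 0.47, and ACTC1, cardiac actin, from 17.5 CPM ± 1.2 to 40.9 CPM ± 2.6. The actin genes share much of their coding sequence, so part of their reads may be shared. TAGLN, the smooth muscle protein transgelin, had 55.1, 53.6 and 51.0 CPM in hHAR123 and 141, 139 and 146 CPM in HAR123-KO (1.40 ± 0.04). TRDN, triadin of the calcium release complex, rose from 4.88 to 16.2 CPM. Abundant members of the stress fibre moved less: TPM1 (tropomyosin) had means of 313 and 516 CPM and MYL9 (myosin regulatory light chain) 102 and 167 CPM, log2 fold changes of 0.70 and 0.69. MYOCD, the coactivator myocardin that drives such genes with SRF, was outside the list and chosen after its values were seen, and rose from 2.65 CPM ± 0.49 to 6.21 CPM ± 0.35 (log2 fold change 1.20 ± 0.12, adjusted p = 3.96e-10). SRF itself had a log2 fold change of -0.00, and did not pass. In every one of ACTA1, ACTC1, ACTG2 and TAGLN, cHAR123 and mHAR123 lay between hHAR123 and HAR123-KO and below HAR123-KO by the direct tests. For ACTA1 these levels were 30.9 and 33.7 CPM (log2 fold change 0.83, adjusted p = 1.11e-17, and 0.72, adjusted p = 9.8e-14).

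SRF binds the CArG box, and the sequences before the start sites of the 3 called actin genes are shown with that motif in capitals, each read 5′ to 3′ on the strand of its gene from RefSeq (GRCh38.p14, chr1:229434095-229434344 minus strand, chr15:34795550-34795799 minus strand and chr2:73892758-73893007 plus strand).
ACTA1: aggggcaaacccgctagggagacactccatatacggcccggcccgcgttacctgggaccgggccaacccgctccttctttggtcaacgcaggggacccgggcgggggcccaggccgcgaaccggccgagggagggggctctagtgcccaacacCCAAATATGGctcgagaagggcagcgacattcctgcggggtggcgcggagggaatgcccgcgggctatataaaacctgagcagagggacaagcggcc
ACTC1: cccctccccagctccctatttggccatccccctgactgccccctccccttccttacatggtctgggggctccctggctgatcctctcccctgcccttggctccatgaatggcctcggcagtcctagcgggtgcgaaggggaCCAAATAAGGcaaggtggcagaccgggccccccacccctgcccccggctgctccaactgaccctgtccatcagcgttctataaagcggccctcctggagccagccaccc
ACTG2: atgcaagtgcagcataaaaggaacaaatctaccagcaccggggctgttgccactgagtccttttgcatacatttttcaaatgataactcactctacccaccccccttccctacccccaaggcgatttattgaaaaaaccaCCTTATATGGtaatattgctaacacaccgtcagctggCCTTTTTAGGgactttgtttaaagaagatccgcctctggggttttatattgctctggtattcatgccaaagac
ACTA1 and ACTC1 held 1 CArG box and ACTG2 held 2. ACTC1 has 3 RefSeq entries, and the one shown is the only one of them with the motif. The motif reads the same on both strands, and 1.16% of the 35116 promoters held at least 1. Of the 31 listed genes, 27 had an entry, and 13 of these held the motif in at least 1 entry. Of the 4 called members with an entry, 3 held it. TRDN did not hold it in this window, and TAGLN was without an entry.

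Annexins and caveolae genes, whose products coat and curve the plasma membrane, rose in part. Of 13 tested, 5 were called higher and 8 passed the p threshold upward, against 0.96% and 7.06% of all tested genes. ANXA2 rose from 40.9 CPM ± 1.9 to 83.3 CPM ± 3.1 and ANXA3 from 9.92 CPM ± 0.20 to 23.4 CPM ± 1.1. CAV1 and CAV2, the caveolins that form caveolae and neighbours on chromosome 7, rose from 3.05 to 8.20 CPM and from 0.620 to 2.25 CPM (log2 fold changes 1.40 ± 0.12 and 1.84 ± 0.21). CAV1 differed from both replacements (adjusted p = 0.00118 and 0.00236), whereas neither test passed for CAV2 (adjusted p = 0.0877 and 0.221).

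**Figure D3:**
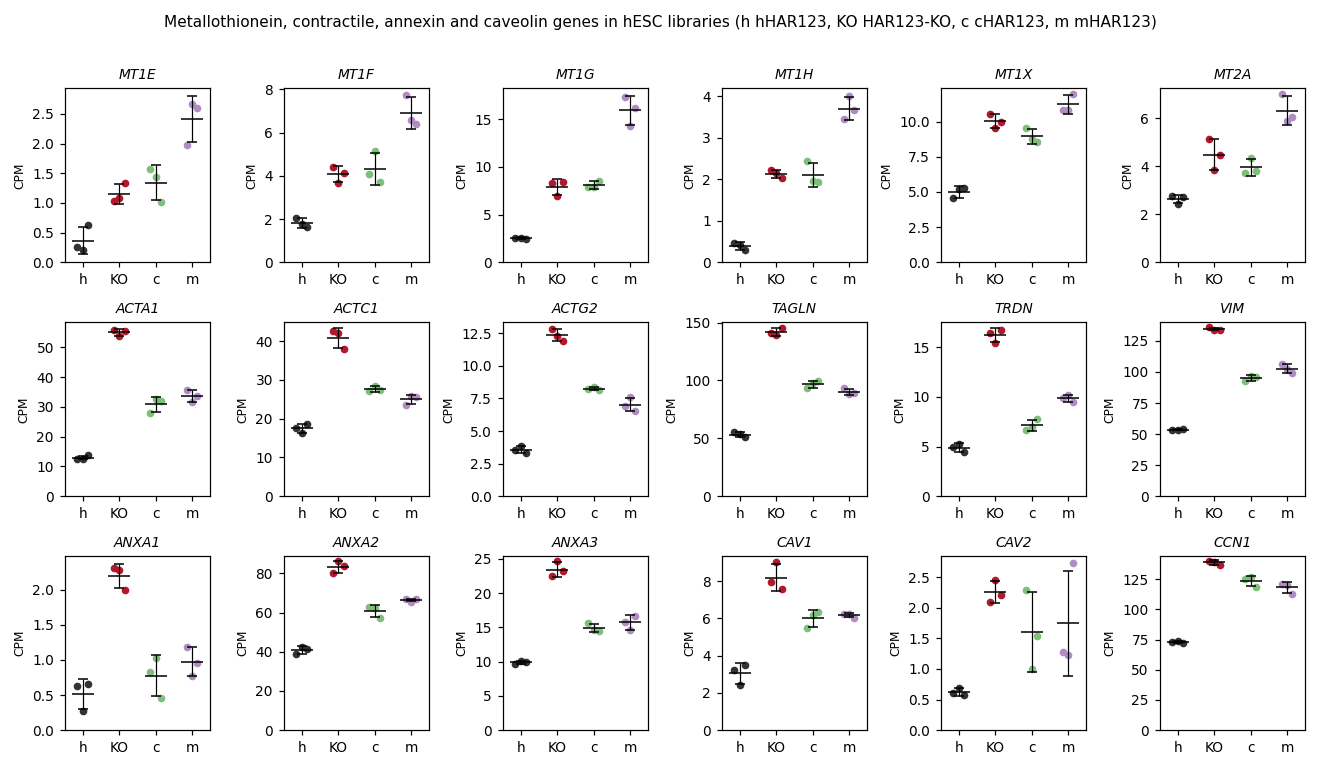
Levels in CPM (linear y axes from 0) of metallothionein genes (top row), contractile genes and VIM (middle row), and annexins, caveolins and CCN1 (bottom row) in the 4 hESC genotypes (h, KO, c and m as above). Points are the 3 libraries and bars the mean ± SD. The metallothioneins have their highest mean in mHAR123, as for MT1G at 15.9 CPM, and the actins and TAGLN have theirs in HAR123-KO.

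YAP is a transcriptional coactivator that responds to cell shape and tension, and TEAD proteins are the DNA-binding factors it acts through. None of 21 tested targets was called. Past the p threshold were 14 upward and none downward, against 7.06% and 5.29% of all tested genes, with a median log2 fold change of 0.35. Against cHAR123 and mHAR123 the medians of these targets were 0.11 and 0.05, and none was called. CCN1 had 73.0, 73.5 and 71.8 CPM in hHAR123 and 140, 139 and 137 CPM in HAR123-KO (0.91 ± 0.03, adjusted p = 3.52e-25), and CCN2 had means of 92.8 and 146 CPM (0.63 ± 0.03). Genes of the extracellular matrix and its receptors gave 1 call. Of 11 laminin genes tested, 8 passed upward and none downward (median log2 fold change 0.30), with LAMA5 at 255 CPM ± 3.0 and 332 CPM ± 5.3. Of 24 integrin-named genes, 9 passed upward and none downward, with ITGB1, the common beta subunit, at 299 and 379 CPM. Of 40 collagens, 15 passed upward and 2 downward, and COL4A3 alone was called, at 0.704 CPM ± 0.26 and 2.12 CPM ± 0.31. Laminins and collagens are long, with median exon lengths of 11983 and 9049 bases. In the longest of 4 equal groups of tested genes by exon length 11.7% passed upward and 6.49% downward. The integrins had a median of 6815 bases, in the next longest group, where 7.61% passed upward and 6.18% downward. The part of length in these counts was not tested. Against cHAR123 and mHAR123 the medians of the laminins were -0.07 and -0.08, and LAMA5 was lower in HAR123-KO than in both (adjusted p = 2.27e-05 and 8.64e-08).

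**Figure D4:**
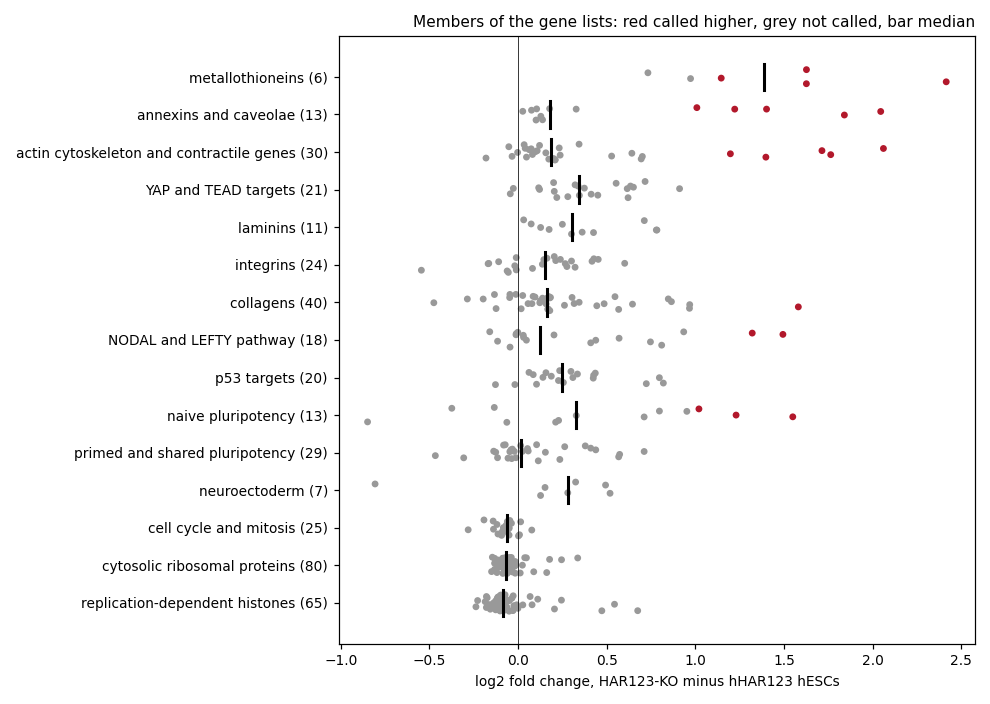
Each point is a tested member of a gene list, placed on the x axis by its log2 fold change of HAR123-KO minus hHAR123 hESCs, and the number tested stands beside the list's name. Red points were called higher, grey points were not called and black bars are medians, which run from 1.39 for metallothioneins to -0.09 for replication-dependent histones.

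Among secreted signals, genes of the NODAL pathway, which maintains the primed state and patterns the early embryo, included 2 of 18 called higher, against 0.96% of all tested genes. Of the 18, 8 passed the p threshold upward and none downward, against 7.06% and 5.29%, and the median log2 fold change was 0.12. Against cHAR123 and mHAR123 the medians of the NODAL list were 0.08 and 0.07. CER1, a secreted inhibitor of NODAL and BMP, had 1.58, 1.54 and 1.65 CPM in hHAR123 and 3.60, 5.47 and 4.42 CPM in HAR123-KO (log2 fold change 1.49 ± 0.15, adjusted p = 3.36e-10). INHBA, the activin A subunit, rose from 0.828 to 2.09 CPM. The ligand NODAL had 7.66 CPM ± 0.50 and 13.0 CPM ± 0.21, and its feedback inhibitors LEFTY1 and LEFTY2 had log2 fold changes of 0.93 and 0.81, both past the p threshold. Of 20 genes induced by TGF-beta, 10 passed upward and none downward, or 6 upward with DESeq2. Of 12 genes of plasminogen activation and pericellular proteolysis, 5 passed upward and none downward, or 3 upward with DESeq2. In the BMP pathway, 1 of 24 was called higher and 1 lower. At the p threshold 8 of the 24 passed upward and 3 downward, or 5 and 3 with DESeq2. The ligand BMP4 rose from 2.09 CPM ± 0.36 to 4.74 CPM ± 0.50 (log2 fold change 1.15 ± 0.14, adjusted p = 2.05e-08), and the ligand GDF7 fell as described. In the WNT pathway, WNT3, a ligand of the primitive streak, was the called member of 28, from 3.08 to 6.34 CPM (1.03 ± 0.11). It dropped under 2-fold without hHAR123 replicate 2 (0.99) or HAR123-KO replicate 3 (0.98). No FGF or ERK feedback gene of 20 was called, and FGF2 had 92.4 and 122 CPM (log2 fold change 0.38 ± 0.03, adjusted p = 1.37e-12).

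Pluripotency genes differed little in size. None of 29 primed and shared pluripotency genes was called, and their median log2 fold change was 0.01. At the p threshold 8 passed upward and 6 downward, against 7.06% and 5.29% of all tested genes. ZFP42 (REX1), a marker of undifferentiated cells, had 132 CPM ± 2.8 in hHAR123 and 199 CPM ± 3.9 in HAR123-KO (0.57 ± 0.03), and ZIC2 had 248 and 182 CPM (-0.47 ± 0.03). Of 13 tested genes of the naive state, 3 were called higher, against 0.96% of all tested genes. These were SOX15 from 1.20 to 3.61 CPM, TFAP2C from 3.87 to 7.98 CPM and DPPA5 from 0.382 to 0.906 CPM. KLF17 had no read in any of the 6 libraries, DPPA3 had a log2 fold change of -0.06 and ESRRB one of -0.85 (adjusted p = 0.00252). Of the 13, 5 passed the p threshold upward and 2 downward, with a median of 0.33. No member passed downward with DESeq2 or without hHAR123 replicate 3, HAR123-KO replicate 2 or HAR123-KO replicate 3, where 4 or 5 passed upward. Against cHAR123 and mHAR123 the medians were 0.04 and 0.03. TFAP2C was not called without hHAR123 replicate 2 (0.94) or HAR123-KO replicate 2 (0.98), and DPPA5 was not called without hHAR123 replicate 3 (1.04, adjusted p = 0.0278) or HAR123-KO replicate 3 (1.16, adjusted p = 0.0189).

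Markers of other lineages gave few calls, where 0.96% of all tested genes were called higher and 0.221% lower. None of 7 neuroectoderm and 11 neural crest genes tested was called, and NES had 443 and 545 CPM (0.28 ± 0.03) and NGFR 7.85 and 13.3 CPM (0.74 ± 0.08). WNT3, listed for the primitive streak, was the called member of 8 mesoderm genes, CER1 of 6 endoderm genes, and TFAP2C of 10 amnion, trophoblast and surface ectoderm genes. SOX17 had no read in the 6 libraries and CDX2 at most 2 in a library. VIM was the called member of 12 fibroblast genes. Of the 12, 5 passed the p threshold upward and none downward, against 7.06% and 5.29% of all tested genes. The summed level of the fibroblast list was 990 to 1015 CPM in hHAR123 and 1263 to 1273 CPM in HAR123-KO libraries, while DCN and LUM had no read. LCP1 was the called member of 9 blood genes, with a summed level of 23.7 to 26.2 CPM and 49.5 to 50.4 CPM, of which LCP1 made up 6.06 and 28.5 CPM on average, while HBE1 had no read and PTPRC at most 4 in a library. FLI1, an ETS factor of endothelium and blood, was the called member of 9 endothelial genes, from 0.588 to 1.33 CPM (1.15 ± 0.25), a call that DESeq2 did not make (adjusted p = 0.0164). Of the 9, 3 passed upward and none downward (1 upward with DESeq2), with a median of 0.09. PECAM1 and CDH5, which define endothelium, were not among them, and had means of 0.209 and 0.0958 CPM and of 1.23 and 0.792 CPM.

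Lists of stress and growth changed little in size. Of 20 p53 targets, none was called, and 9 passed upward and none downward (median 0.24), or 5 upward with DESeq2. Against cHAR123 and mHAR123 the medians of the p53 targets were 0.04 and -0.145. CDKN1A, the cell cycle inhibitor p21, had 3.92 CPM ± 0.27 and 7.02 CPM ± 0.36 (log2 fold change 0.82 ± 0.11, adjusted p = 8.47e-08), and PHLDA3 had 10.8 and 17.9 CPM (0.72 ± 0.07). Of 25 cell cycle genes, 6 passed downward and none upward (3 downward without hHAR123 replicate 2), led by TOP2A at 374 and 332 CPM (-0.19 ± 0.02). Replication-dependent histones had 27 of 65 genes past the p threshold downward and 2 upward, against 5.29% and 7.06% of all tested genes, with a median log2 fold change of -0.09. H4C11 had 854 CPM ± 18 and 765 CPM ± 13. Cytosolic ribosomal protein genes had 21 of 80 past it downward and 2 upward (median -0.07), with RPL29 at 612 and 561 CPM. Which of these small decreases passed depended on single libraries. The count was 11 histones and 9 ribosomal protein genes without hHAR123 replicate 2, 14 and 9 without HAR123-KO replicate 1, 17 and 14 without HAR123-KO replicate 2, and 31 and 34 without HAR123-KO replicate 3. The median of each list stayed below 0 in all of these fits. Against cHAR123 and mHAR123 the medians lay above 0, at 0.049 and 0.054 for the histones. They were 0.048 and 0.024 for the ribosomal protein genes and 0.041 and 0.038 for the cell cycle genes. No immediate early gene of 20 was called, and JUN had 12.7 and 22.6 CPM (0.81 ± 0.07). Among 26 heat shock chaperones, DNAJA4 was called lower and no other. Of 23 hypoxia and glycolysis genes, 8 passed the p threshold upward and 3 downward, against 7.06% and 5.29% of all tested genes. Their median log2 fold change was 0.01, and with DESeq2 4 passed upward and 3 downward. No member was called among 22 genes of the integrated stress response (SLC7A5, 503 and 689 CPM), 23 of hypoxia and glycolysis (PFKP, 111 and 137 CPM), 21 of cholesterol synthesis, 25 imprinted genes (SNHG14, 3371 and 3692 CPM), 8 DNA methylation enzymes (DNMT3A, 282 and 247 CPM), 21 of nonsense-mediated decay (MOV10, 69.6 and 85.7 CPM) and 20 at 20q11.21, a region often gained in hESC lines (CCM2L, 14.2 and 9.66 CPM), where each gene in brackets had the smallest adjusted p of its list.

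Of 486 zinc finger genes with ZNF numbers, 3 were called higher and 4 lower, where 0.96% and 0.221% of all tested genes were. ZNF562, ZNF649 and ZNF880, all on chromosome 19, rose from 33.3 to 69.8 CPM, from 23.1 to 47.6 CPM and from 8.87 to 18.7 CPM, and their levels in cHAR123 (67.0, 42.3 and 16.5 CPM) and mHAR123 (65.9, 43.5 and 17.3 CPM) were also high. ZNF717, ZNF300 and ZNF283 fell, the last from 5.52 to 1.70 CPM, and ZNF572 went from 51 reads to 2, a ratio of 21.8 (95% exact interval 5.75 to 185). Of 52 clustered protocadherins, which give neurons their surface identity, PCDHA11 was the called member. It had 7.36 CPM ± 0.39 in hHAR123, 3.07 CPM ± 0.44 in HAR123-KO, 4.28 CPM ± 0.35 in cHAR123 and 21.8 CPM ± 1.1 in mHAR123. Of 250 solute carriers 3 were called higher, a share near that of all tested genes: SLC35A2, SLC15A1 (the intestinal peptide transporter, 1.47 to 3.19 CPM) and SLC8A3 (a sodium-calcium exchanger, 0.957 to 1.99 CPM), the last not called without hHAR123 replicate 2 (0.99) or HAR123-KO replicate 3 (0.84). TRIM58, of 46 tripartite motif genes, had 0.649 CPM in hHAR123, 2.47 CPM in HAR123-KO, 3.29 CPM in cHAR123 and 0.772 CPM in mHAR123. Of 23 genes of the mitochondrial genome, the ribosomal RNA MT-RNR1 was called, from 1.93 to 3.95 CPM (1.01 ± 0.14), in libraries depleted of ribosomal RNA. Of the 23, 13 passed the p threshold upward and none downward, against 7.06% and 5.29% of all tested genes. MT-RNR1 was not called without hHAR123 replicate 2 (0.93), hHAR123 replicate 3 (0.99) or HAR123-KO replicate 2 (0.9988). The share of mitochondrial counts was also higher in HAR123-KO libraries, as given above, and its part in these counts was not tested.

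The called genes were found on every autosome, on the X chromosome and, with MT-RNR1, in the mitochondrial genome, and the median log2 fold change of a chromosome ranged from -0.02 to 0.02. Called genes were also looked at by position, a description made after their values were seen. Within 300 kb of another called gene lay 60 of the 246, in 25 stretches, and 22 of these stretches held changes in 1 direction. As 200 of the 246 were higher, most pairs of called genes share a direction wherever they lie. The same count for sets of other tested genes was not made. Some called genes of a stretch overlap and were counted separately, as RPS14P4 lies inside MIR4435-2HG on the same strand. The stretch with the most called genes was on chromosome 11 (7689437 to 7965447, GRCh38), 276 kb where all 6 tested genes rose, while none of the 25 other genes tested within 1 Mb of it was called (log2 fold changes -0.18 to 0.47). It holds OVCH2, the odorant receptor genes OR5P2 and OR5P3, the pseudogene OR5P1P, the lncRNA ENSG00000254951 and NLRP10, an inflammasome regulator. OR5P1P and OR5P2 lie inside the span of ENSG00000254951 (7754393 to 7905955) on the same strand, and the midpoint of OR5P3 falls there too. Reads of these genes may not be separated from those of the lncRNA, so the 6 increases may not be separate changes. OVCH2 had 0.568, 0.452 and 0.966 CPM in hHAR123 and 3.09, 2.21 and 1.94 CPM in HAR123-KO (1.80 ± 0.24). ENSG00000254951 rose from 1.04 to 4.04 CPM and NLRP10 from 1.04 to 2.74 CPM. OR5P2 went from 12 to 63 reads and OR5P1P from 13 to 75 reads. The cHAR123 and mHAR123 means of OVCH2 were 2.04 and 2.09 CPM, and neither direct test against HAR123-KO passed (adjusted p = 0.477 and 0.55). On chromosome 5, SCGB3A2, ENSG00000288774 and SPINK5 rose together, SCGB3A2, a secretoglobin, from 9.54 CPM ± 0.75 to 28.6 CPM ± 1.7. On chromosome 13, SOHLH2, CCDC169 and SPART-AS1 rose, and CCDC169 had 4.54 CPM in hHAR123, 10.2 CPM in HAR123-KO, 5.79 CPM in cHAR123 and 2.67 CPM in mHAR123. On chromosome 6, DPPA5 rose beside CGAS, which fell.

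**Figure D5:**
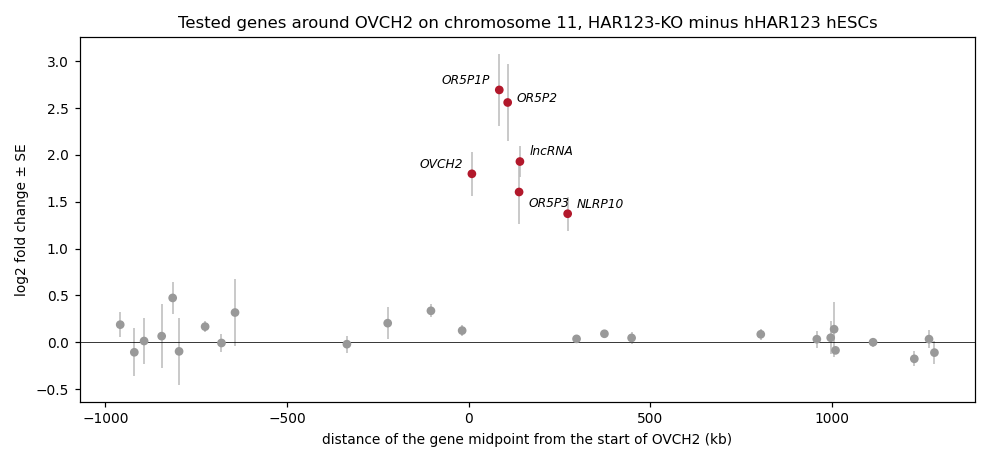
Log2 fold change ± SE (HAR123-KO minus hHAR123 hESCs) of the 31 tested genes within 1 Mb of the stretch, by the distance in kb of the gene's midpoint from the start of OVCH2. The 6 red genes were called higher and lie from 1.37 to 2.69, and the 25 grey genes on either side were not called.

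At the deleted locus itself, changes were small. SMG6, the nonsense-mediated decay endonuclease gene that houses HAR123, had 77.1, 79.5 and 78.6 CPM in hHAR123 and 70.5, 71.8 and 71.0 CPM in HAR123-KO. The groups did not overlap, and the log2 fold change was -0.16 ± 0.03 (adjusted p = 0.000475). The cHAR123 and mHAR123 means were 66.4 and 68.9 CPM. Of 30 genes tested within 500 kb of SMG6, none was called, where 0.96% of all tested genes were called higher and 0.221% lower. Past the p threshold were 1 upward and 4 downward, against 7.06% and 5.29% of all tested genes. Log2 fold changes in this window ranged from -0.57 to 0.45. HIC1, a transcriptional repressor gene beside SMG6, was too low to be tested in hESCs, with 0.242 CPM ± 0.087 in hHAR123 and 0.218 CPM ± 0.051 in HAR123-KO. The annotated genes overlap on opposite strands (GRCh38, chromosome 17, 2054154 to 2063241 for HIC1 and 2059839 to 2303785 for SMG6), and whether counting used strand is not given in the sources used here, so that reads of the pair may not be separated.

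For 4 leading increases and 5 leading decreases, the change in hESCs was compared with that in neuroectoderm by an interaction test over 12 libraries, in which 32.5% of 23113 genes passed at an adjusted p under 0.01. ZNF717 and ZNF300 were low in HAR123-KO at both stages, and their interaction did not pass (adjusted p = 0.921 and 0.521). ZNF717 had 29.6 CPM in hHAR123 and 0.111 CPM in HAR123-KO neuroectoderm, and ZNF300 had 8.02 and 0.543 CPM. LCP1 had 0.463 and 1.89 CPM there (adjusted p of the interaction = 0.714). DNAJA4, MT1H and CLC had means of at most 0.163 CPM in neuroectoderm of either genotype, and their interaction did not pass. TRPM2, higher in HAR123-KO hESCs, had neuroectoderm means of 0.326 and 0.241 CPM in hHAR123 and HAR123-KO. Its interaction passed, at -2.69 (adjusted p = 0.000289, and 0.0201 without hHAR123 neuroectoderm replicate 2). FAR2P2 was lower in HAR123-KO at both stages, at 2.28 against 9.66 CPM in neuroectoderm, by a smaller ratio than in hESCs (interaction 1.63, adjusted p = 1.79e-08). GDF7 fell in HAR123-KO hESCs and had 7.27 CPM in hHAR123 and 57.7 CPM in HAR123-KO neuroectoderm (interaction 6.69, adjusted p = 2.33e-27).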

How the data were processed

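The study depleted ribosomal RNA from total RNA, made directional libraries and sequenced them as paired ends on a NovaSeq. Per the labels, the deposited counts are raw read counts per Ensembl gene (GRCh38), from STAR 2.5.2b alignments and featureCounts of Subread, and DESeq2 was the study's own test. Whether counting used strand is not given in the sources used here. The table held 61551 usable genes, and 1 further entry, broken over 3 lines, was left out. Symbols and positions came from GENCODE 44.

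Counts were fitted with edgeR 4.0.16 in R 4.3.3 (filterByExpr, TMM, quasi-likelihood F test, Benjamini-Hochberg adjustment over all genes tested), and genes were called at an adjusted p under 0.01 and over 2-fold. CPM are counts scaled to a library total of 1e6, SD is over 3 libraries, and SE of a log2 fold change is its size divided by the square root of F. Each pair of genotypes was fitted alone, and 12 libraries entered the interaction with the stage. DESeq2 1.42.0 was an alternative, with its size factors in edgeR, no filter, other thresholds, a replicate block, all 12 hESC libraries in 1 fit and each library left out. On simulated counts of 20790 genes for the main comparison, 88% of 1.5-fold and 90% of 2-fold changes had an adjusted p under 0.01. In the same simulation 2 unchanged genes passed. For the interaction (23037 genes) 74% and 90% of such changes passed. In both simulations the changed genes were drawn only from those at or above a set minimum of expected counts in every library. The spread of each gene was taken from the trend with level. Recovery for genes of low count, and by the full calling rule with its 2-fold limit, was not tested.

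Named were the 8 largest increases and decreases among called genes with a symbol and at least 1 CPM, the 3 most abundant called genes in each direction, up to 3 called members of each of 41 lists (or the member with the smallest adjusted p), SMG6 and HIC1. Results for a few genes that this rule names are not reported here. Further genes named to describe a list were chosen after their values were seen. The genes, lists and tests were chosen with earlier results of these data known. Intervals on ratios of counts are exact 95% intervals that cover counting error only. Replicate numbers did not pair the libraries. The deviations of same-numbered hHAR123 and HAR123-KO hESC libraries from their group means correlated at 0.0132, -0.00554 and 0.00194.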

Additional observations from a re-analysis of the deposited data

Results flagged for a closer look

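The difference between HAR123-KO and hHAR123 was not the same at the 2 stages for 3 of the 9 genes given here. The values are the log2 fold change in neuroectoderm minus that in hESCs, from the edgeR interaction test. It was -2.69 for TRPM2, which was higher in HAR123-KO hESCs. It was 1.63 for FAR2P2, which was lower in HAR123-KO at both stages. It was 6.69 for GDF7, which was lower in HAR123-KO hESCs and higher in HAR123-KO neuroectoderm. The TRPM2 difference had an adjusted p of 0.0201 without hHAR123 neuroectoderm replicate 2. Of all genes tested, 32.5% passed the same test.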

How the results depend on the processing

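In HAR123-KO against hHAR123 hESCs, DESeq2 called 125 genes higher and 26 lower, and the p threshold without the fold gave 1470 and 1103. Leaving out each library gave 181 to 193 higher and 42 to 59 lower. Against cHAR123, where edgeR called 39 higher and 17 lower, DESeq2 called 16 and 3, and leaving out each library gave 31 to 37 and 9 to 19. The low ends of the last range were 10 without HAR123-KO replicate 2 and 9 without cHAR123 replicate 3. Against mHAR123, where edgeR called 30 and 21, DESeq2 called 11 and 9, and leaving out each library gave 20 to 29 and 15 to 30. The interaction count was 6909 to 7267 with a library left out, against 7507. The cause of these differences was not tested.

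The fit with a replicate block gave 208 and 49 genes against hHAR123, 39 and 18 against cHAR123, 25 and 15 against mHAR123, and 7117 for the interaction. The libraries share only a number, so the blocked fit is given for completeness. Other settings of the comparison with hHAR123 gave 200 to 249 genes higher and 44 to 68 lower.

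Over named genes and settings, 916 values kept their side of the threshold, 21 came to pass it, 20 of them because the fold threshold was dropped, and 19 no longer passed, with none reversed. Of these, DPPA5 and ZNF572 had no adjusted p in DESeq2, and LCP1 against mHAR123 was 0.97 without mHAR123 replicate 2. Of the 246 called genes 102 had a mean under 1 CPM, so that their fold changes are less precise than those of abundant genes. Small changes in abundant genes passed the p threshold readily at these depths. With 3 libraries a group from few clones, the spread between clones is poorly known.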
